A study of Mus musculus with 6 samples.

Results

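A set of 9 hormone and regulator genes of the anterior pituitary, the gland that hangs below the hypothalamus, were followed across 6 brain arrays. They are the hormone genes Gh, Prl, Pomc, Cga, Tshb, Lhb and Fshb, the transcription factor gene Pou1f1 and the receptor gene Ghrhr. Every probe set that the platform annotation assigns to exactly 1 of these 9 genes was taken, which gave 12 of the 45037 probe sets tested, for 8 of the 9 genes. Gh had 4 probe sets, Pomc 2 and the other 6 genes 1 each, while Pou1f1 had none listed and is not analysed here. The tissue was the brain without its cerebellum, with 3 Gb5-deficient and 3 wild-type samples and 1 Affymetrix array per sample. Gb5 is the G protein beta subunit encoded by Gnb5, and the labels do not say how its loss was made. They give no age, strain or sex per animal, and describe the mice as littermates matched for age and sex. The sex-linked transcripts differed between arrays of 1 genotype, and it was not tested if every array stands for a single animal. The arrays are called knockout 1, 2 and 3 and wild type 4, 5 and 6, as numbered in the sample titles.

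The anterior pituitary makes its hormones in separate cell types. Somatotrophs make growth hormone, lactotrophs prolactin, corticotrophs the ACTH precursor, thyrotrophs thyrotropin and gonadotrophs the gonadotropins LH and FSH. Thyrotropin, LH and FSH are each a pair of chains that share the alpha chain encoded by Cga and differ in a beta chain, encoded by Tshb, Lhb or Fshb. POU1F1 is needed for somatotrophs, lactotrophs and thyrotrophs. Cga and Tshb are also expressed in the pars tuberalis, the part of the gland that wraps the pituitary stalk, and Pomc also in neurons of the hypothalamus. A brain sample carries the gland's transcripts where some of the gland stays on the base of the brain at dissection. Whether this happened here was not tested, and in tissue RNA a larger number of cells of a type and more RNA per cell cannot be told apart.

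Promoter sequences are shown for Cga, Tshb and Prl, 3 of the genes whose values were highest on the same array as Gh. Lhb, Fshb and the brighter Pomc probe set were also highest there, and their sequences are not shown. RefSeq promoter entries were matched by symbol for 7 of the 9 genes, and Gh and Ghrhr had no entry. Each sequence holds the 250 bases before the annotated start, 5′ to 3′ on the gene's strand, credited to RefSeq with build GRCm38.p6. Capitals mark motif matches on either strand. The first motif was the TATA box, searched as TATAAA. The second was a core of the recognition sequence of POU1F1, searched as TATNCAT. The third was a variant of the cAMP response element, searched as TGATGTCA. The usual form of that element, TGACGTCA, was searched too. Where forward and reverse TATA matches overlap, they appear as 1 run. These motifs were chosen after the sequences were seen.
Cga, chr4:34893529-34893778, + strand: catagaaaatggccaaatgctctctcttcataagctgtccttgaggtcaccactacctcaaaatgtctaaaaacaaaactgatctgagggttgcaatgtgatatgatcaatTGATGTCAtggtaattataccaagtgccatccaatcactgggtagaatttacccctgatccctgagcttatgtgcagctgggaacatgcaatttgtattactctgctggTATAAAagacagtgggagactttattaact
Tshb, chr3:102782715-102782964, - strand: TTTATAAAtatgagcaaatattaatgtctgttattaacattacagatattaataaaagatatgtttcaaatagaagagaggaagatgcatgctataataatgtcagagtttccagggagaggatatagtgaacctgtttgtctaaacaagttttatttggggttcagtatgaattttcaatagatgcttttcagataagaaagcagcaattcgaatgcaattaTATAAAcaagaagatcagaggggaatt
Prl, chr13:27057320-27057569, + strand: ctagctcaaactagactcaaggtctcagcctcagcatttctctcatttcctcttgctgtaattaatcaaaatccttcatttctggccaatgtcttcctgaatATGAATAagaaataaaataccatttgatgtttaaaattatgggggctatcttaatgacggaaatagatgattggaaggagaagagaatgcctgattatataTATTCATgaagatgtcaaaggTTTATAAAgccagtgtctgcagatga

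All 3 windows held a TATA box close to the start, with its first base at -30 in Cga, -27 in Tshb and -24 in Prl. TATAAA also stood in the windows of Fshb, Lhb and Pomc and in a window of Pou1f1. Among 32851 promoter windows of the same length, 12.4% held TATAAA at any position and on either strand, so this share is not limited to sites near the start. Of the 3 windows shown, only that of Prl held the POU1F1 core, with first bases at -148 and -47. Among all windows, 7.92% held it. The cAMP response element variant stood in the Cga window at -139, and 2.93% of all windows held it. Its usual form, TGACGTCA, was in none of the 3 windows shown, and 1.55% of all windows held it. No match says only that these letters are not in the window.

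The samples matched their genotype labels at the targeted gene. Of its 2 probe sets the brighter Gnb5 probe set read 3.67, 3.00 and 3.56 on the log2 scale in the knockouts, against 8.79, 8.98 and 9.30 in the wild types. The dimmer read 3.83, 3.63 and 3.63 in the knockouts, against 4.90, 4.95 and 4.20 in the wild types. This smaller difference, -0.98, missed the threshold (limma adjusted p = 0.173). Array medians lay between 5.81 and 5.85. No detection calls were used, so a low value cannot be called absent. Knockout array 3 and wild-type array 6 stood apart from the other arrays of their genotype at Gh and Cga, and the differences and correlations are given with and without them. In the limma fit 12 of the 45037 probe sets passed an adjusted p of 0.05.

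The 3 pituitary genes Gh, Cga and Tshb were far higher on knockout array 3 than on any other array, and all 3 were next highest on wild-type array 6, clearly so for Gh and Cga and by a narrow margin for Tshb. Prl was also highest on knockout array 3, by a much smaller step. Fshb, Lhb and Pomc varied by less than 1 on the log2 scale among the knockouts, and Ghrhr was flat there. No pituitary probe set passed the test between the genotypes.

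Gh encodes growth hormone, the main product of somatotrophs. Its probe set with the highest mean, the one with the suffix _a_at, read 5.08, 4.67 and 10.62 (log2) in knockouts 1, 2 and 3, against 4.70, 4.20 and 6.21 in wild types 4, 5 and 6. The groups overlapped, with 1 knockout above all wild types and the other 2 between wild types 5 and 6. Knockout 3 exceeded the mean of the other 2 knockouts by 5.75, or 53.7-fold, and wild type 6 exceeded the mean of the other 2 wild types by 1.76, or 3.38-fold. The other Gh probe sets, whose suffix _x_at marks probes that can match further transcripts, gave excesses of 6.02, 6.53 and 6.80 in knockout 3 and of 1.89, 2.93 and 3.58 in wild type 6. All 4 thus ordered the 2 high arrays alike, and knockout 3 lay above wild type 6 by 4.32 to 4.48. Pearson correlations between Gh probe sets over the 6 arrays ran from 0.977 to 0.998, and the lowest was 0.873 without knockout 3. Low values of a probe set end near background on this platform, so these folds may be understated.

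Cga encodes the alpha chain shared by thyrotropin, LH and FSH. It read 4.91, 3.31 and 9.32 in the knockouts, against 3.12, 4.05 and 6.18 in the wild types. Knockout 3 was again the highest array and wild type 6 the second highest, and the remaining 4 values of the 2 genotypes overlapped. The excess was 5.21 in knockout 3, or 36.9-fold, and 2.59 in wild type 6, or 6.04-fold. Knockout 1 also read 1.59 above knockout 2 for Cga, against 0.41 for the _a_at probe set of Gh.

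Tshb encodes the beta chain of thyrotropin. It read 5.24, 5.31 and 8.35 in the knockouts, against 5.10, 5.27 and 5.39 in the wild types. Only knockout 3 stood out: its excess was 3.08, or 8.45-fold, while that of wild type 6 was 0.20. The 5 other Tshb values lay within a narrow band, with wild type 6 at its top and within 0.29 of the other wild types.

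Prl encodes prolactin, the product of lactotrophs. It read 3.66, 3.23 and 4.33 in the knockouts, against 3.13, 3.38 and 3.46 in the wild types. Knockout 3 was highest, with an excess of 0.89, or 1.85-fold, and wild type 6 exceeded its group by 0.20. All 6 Prl values lay below the array medians, although Prl is among the abundant transcripts of the whole gland. In rodents pituitary Prl is known to differ between the sexes. Xist, which silences an X chromosome in female cells, read 10.65, 8.31 and 10.62 in the knockouts, against 4.96, 10.81 and 10.70 in the wild types. The Y-linked gene Eif2s3y read 2.96, 11.28 and 6.97 in the knockouts, against 11.26, 6.05 and 4.05 in the wild types. Knockout 2 thus carried both, and its Y-linked Kdm5d read 6.79, against 2.86 and 3.08 in the other knockouts. Knockout 3 read high for Xist and between the extremes for Eif2s3y. These values differ within each genotype, whereas the labels describe the mice as matched for sex. With the Eif2s3y level as a covariate, Prl differed between the genotypes by 0.41 (limma adjusted p = 0.411), against 0.42 (0.451) without it. The part of the sex-linked transcripts in the Prl values of single arrays was not tested.

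Pomc encodes the precursor of ACTH and of melanocyte-stimulating hormone. The brighter of its 2 probe sets read 7.18, 6.95 and 7.54 in the knockouts, against 6.77, 6.82 and 7.23 in the wild types. It was highest in knockout 3 and second highest in wild type 6, by small steps of 0.47 and 0.43 over the other arrays of each genotype. The dimmer probe set read 5.23, 4.48 and 4.93 in the knockouts, against 4.67, 4.62 and 4.64 in the wild types, with excesses of 0.08 and -0.01 for the same arrays. The correlation between the 2 Pomc probe sets over the 6 arrays was 0.52, so the small steps were not shared by both.

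The gonadotropin beta chains were dim. Lhb read 4.59, 3.79 and 4.60 in the knockouts, against 3.78, 3.99 and 3.64 in the wild types. Fshb read 3.13, 2.69 and 3.56 in the knockouts, against 3.23, 2.86 and 2.86 in the wild types. Knockouts 1 and 3 shared the top of the Lhb values, and neither gene was high in wild type 6. Ghrhr, the receptor through which hypothalamic GHRH drives somatotrophs, read 4.32, 4.29 and 4.41 in the knockouts, against 4.46, 4.32 and 4.16 in the wild types. Ghrhr was thus flat on the arrays where Gh was high and where it was low. Prl, Lhb, Fshb and Ghrhr lay below every array median on all 6 arrays, so that a small change could go unseen.

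**Figure D1:**
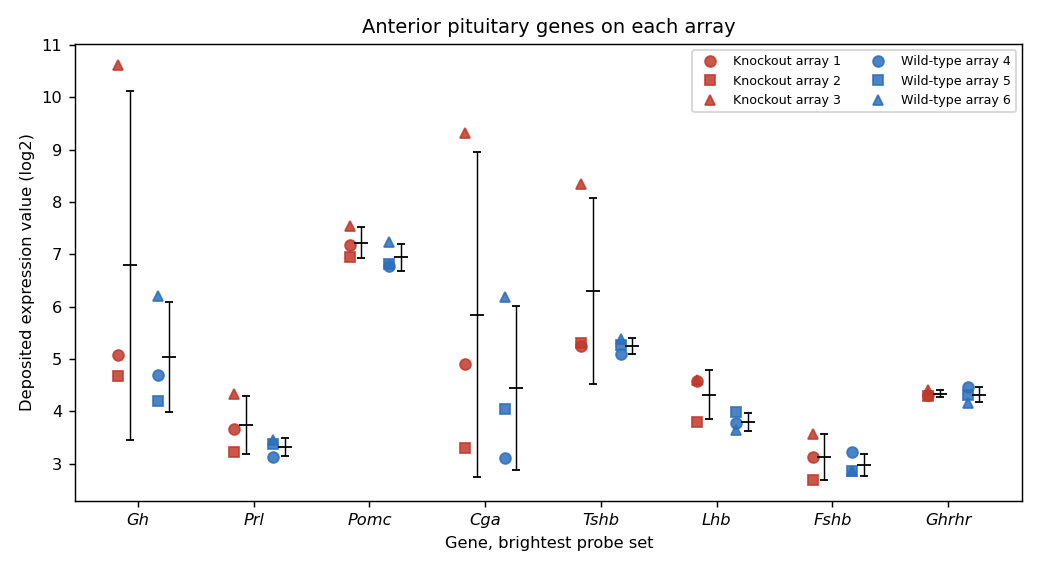
Deposited log2 expression value (vertical axis) of the brightest probe set of 8 pituitary genes (horizontal axis) on each array, knockouts in red on the left and wild types in blue on the right of each gene. Black bars give the mean ± SD (n = 3). Knockout array 3 reads 10.62 for Gh, 9.32 for Cga and 8.35 for Tshb, and wild-type array 6 reads 6.21, 6.18 and 5.39.

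Within each genotype the spread of the pituitary genes was uneven. The range among the 3 knockouts was 5.95 for Gh, 6.00 for Cga, 3.11 for Tshb and 1.10 for Prl, against a median of 0.27 and a 99th percentile of 0.96 over all probe sets. Among the 3 wild types the range was 2.01 for Gh and 3.06 for Cga, against a median of 0.24 and a 99th percentile of 0.90. It was 0.29 for Tshb and 0.32 for Prl, near that median. The knockout range of Fshb was 0.87, that of Lhb 0.81 and those of the 2 Pomc probe sets 0.59 and 0.74, all above the median and under the 99th percentile. Ghrhr, at 0.12, lay below the median. Ordered by the knockout range, the 4 Gh probe sets took places 2, 3, 5 and 9 of 45037 and Cga place 7. Ordered by the wild-type range, they took places 14, 21, 51 and 52, and Cga place 28.

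The knockout range exceeded the wild-type range at 11 of the 12 probe sets, the exception being Ghrhr with 0.12 and 0.30. Standard deviations for Gh were 3.33 in knockouts and 1.05 in wild types (n = 3 each). For Cga they were 3.11 and 1.57, and for Tshb 1.78 and 0.144. Absolute deviations from the group median were compared between genotypes by an exact permutation test, two-sided. It gave p from 0.4 to 1.0 over the 12 probe sets. With 3 against 3 arrays the median array of each group never deviates, so small p-values were out of reach. The test therefore cannot decide if the spread differed between genotypes. At Gh and Cga, 1 array of each genotype set most of the spread.

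An excess of this size in knockout 3 was rare in the table as a whole. Knockout 3 and wild type 6 were singled out by their Gh and Cga values, so high places of these genes here are no test. Of 45037 probe sets, 60 exceeded the mean of the other 2 knockouts by more than 1 on the log2 scale, and 10 by more than 3. Pituitary probe sets made up 6 of the 60 and the same 6 of the 10, namely the 4 of Gh and those of Cga and Tshb. In wild type 6, 63 probe sets exceeded the other 2 wild types by more than 1, and 5 of these were pituitary, the 4 of Gh and that of Cga. The 5 largest excesses of knockout 3 belonged to Gh and Cga, and the next, 4.91, to 1 of the 3 probe sets of Minar2. In wild type 6 that Minar2 probe set came first, at 4.54, followed by a probe set of Xist, at 3.70, and then by Gh, at 3.58.

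**Figure D2:**
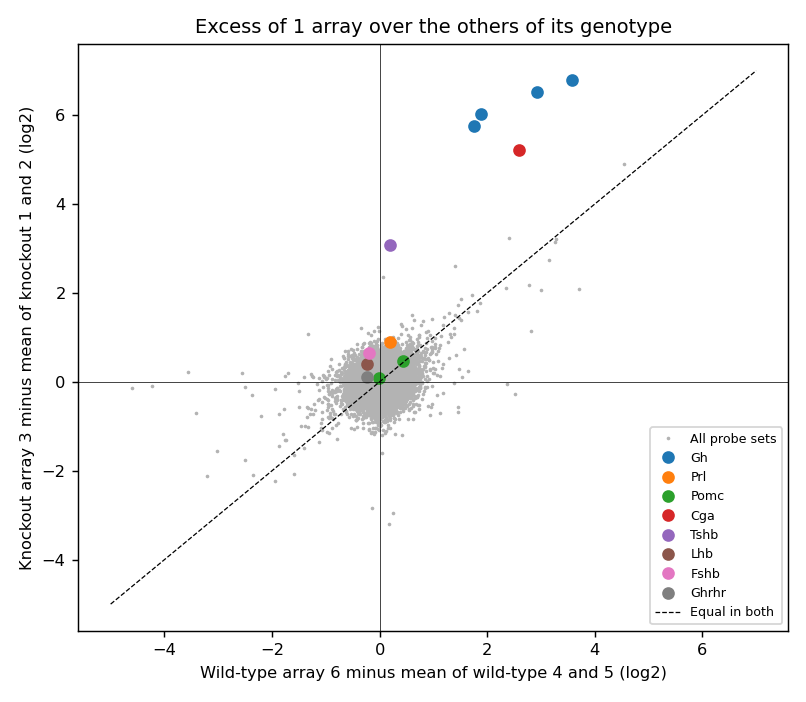
Excess of knockout array 3 over the mean of knockouts 1 and 2 (vertical axis, log2) against the excess of wild-type array 6 over the mean of wild types 4 and 5 (horizontal axis, log2), with all 45037 probe sets in grey and the 12 pituitary probe sets coloured by gene. Gh and Cga lie above the dashed line of equal excess, at 5.21 to 6.80 in knockout 3 and 1.76 to 3.58 in wild type 6, and Tshb lies at 3.08 and 0.20.

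Over the 6 arrays the genes varied together mainly through knockout 3. The genes with the closest patterns were Gh and Tshb, with r = 0.97, and Gh and Cga, with r = 0.95. Of 28 pairs of the 8 genes, each read by its brightest probe set, 26 had a positive Pearson r, the median was 0.71 and 7 exceeded 0.9. In an exact permutation test over all orders of the arrays, two-sided, 11 pairs had an unadjusted p under 0.05 by Pearson r and 3 by Spearman rho. The share among pairs of other genes was not counted, so these counts are not read as particular to the pituitary genes. After Benjamini-Hochberg adjustment over the 28 pairs 0 passed by either measure, with smallest adjusted permutation p values of 0.0649 and 0.234. All arrays entered 1 joint normalization, and the points share it.

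Gh and Cga had r = 0.95 (exact permutation p = 0.0125, adjusted 0.0649) and rho = 0.77 (exact p = 0.103, adjusted 0.36). Gh and Tshb had r = 0.97 (exact permutation p = 0.0236, adjusted 0.0826) and rho = 0.54 (exact p = 0.297, adjusted 0.64). Gh and Prl had r = 0.92 (exact permutation p = 0.0458, adjusted 0.117) and rho = 0.71 (exact p = 0.136, adjusted 0.423). Gh and Pomc had r = 0.89 (exact permutation p = 0.00556, adjusted 0.0649) and rho = 0.83 (exact p = 0.0583, adjusted 0.285). Gh with Lhb gave r = 0.54, with Fshb 0.74 and with Ghrhr 0.18. Deviations from the genotype means gave nearly the same r for Gh, at 0.95 with Cga, 0.96 with Tshb, 0.91 with Prl and 0.87 with Pomc. With 3 arrays a genotype, no r was computed within one genotype.

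These relations rested on few arrays. Without knockout 3 and wild type 6, the 2 arrays farthest from the Gh median, r over the remaining 4 was 0.36 with Cga, -0.22 with Tshb, 0.42 with Prl and 0.75 with Pomc. Without knockout 3 alone, r over 5 arrays was 0.84 with Cga, 0.54 with Tshb, 0.39 with Prl and 0.82 with Pomc, and the median over the 28 pairs was 0.24. Gh, Cga and the brighter Pomc probe set had r of 0.82 to 0.87 among themselves over 5 arrays. For Gh with Cga this r rested largely on wild type 6, as 0.36 remained without both arrays. The dimmer Pomc probe set, with an excess of -0.01 in wild type 6, was not used here. The relation of Gh with Tshb and Prl rested on knockout 3.

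**Figure D3:**
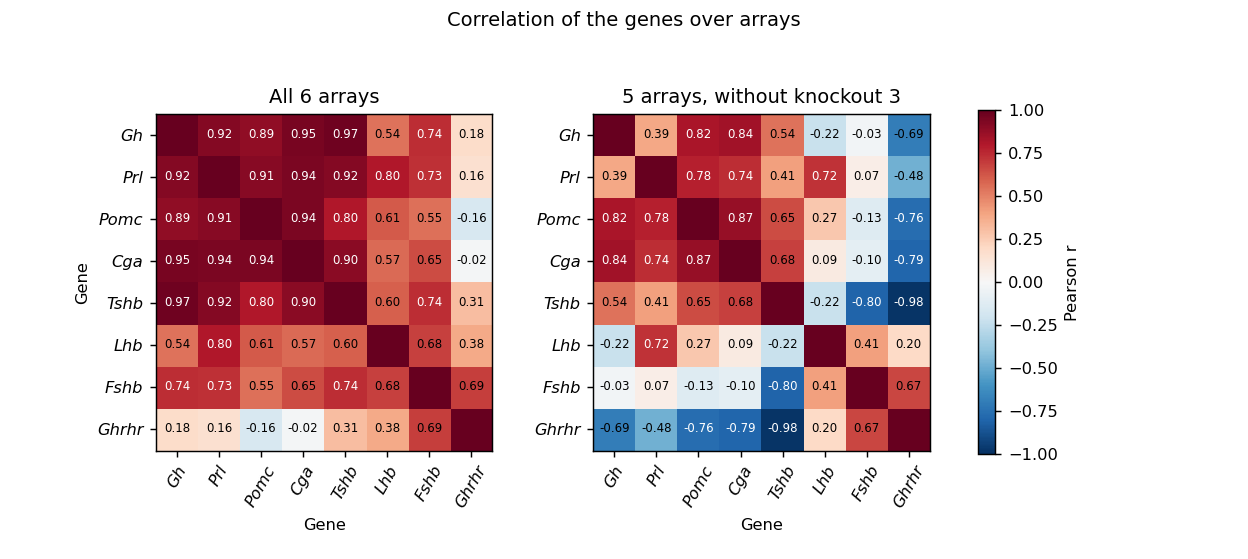
Pearson r between the brightest probe sets of 8 pituitary genes over all 6 arrays (left) and over the 5 arrays without knockout 3 (right), with colour from blue (-1) to red (1). The median of the 28 pairs is 0.71 on the left and 0.24 on the right.

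Between the genotypes, all 12 pituitary probe sets had a higher mean in the knockouts, and none passed. The median difference, knockout minus wild type, was 0.79 on the log2 scale, against 0.03 over all probe sets. With each gene counted once it was 0.47, against 0.05 over all genes. Without knockout 3 the knockout mean was lower at 7 of the 12 probe sets, and the median difference was -0.01. Without knockout 3 and wild type 6 it was lower at 2 of the 12, with a median of 0.24. In limma 0 of 12 passed over all 45037 probe sets, where 0.0266% passed. At an unadjusted p under 0.05 there was 1 of 12, against 14.4% of all probe sets. That count was 4 without knockout 2, 2 without knockout 3 and wild type 6, and 0 without knockout 1, knockout 3 or wild type 4. The share of all probe sets was not counted in those fits, so these counts cannot be set against one. The groups did not overlap at 0 of the 12, against 21.5% of all probe sets.

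Gh averaged 6.79 ± 3.33 in knockouts and 5.04 ± 1.05 in wild types (SD, n = 3 each), a difference of 1.75 ± 1.34 (SE) with a limma adjusted p of 0.568. Its 95% interval ran from -1.28 to 4.78, and the exact permutation p was 0.6. Cga differed by 1.40 ± 1.34 (limma adjusted p = 0.655) and Tshb by 1.05 ± 0.69 (0.506). Prl differed by 0.42 ± 0.241 (limma adjusted p = 0.451) and the brighter Pomc probe set by 0.28 ± 0.175 (0.478). Lhb, at 0.52 ± 0.212, was the gene with an unadjusted p under 0.05 (limma p = 0.0352, limma adjusted p = 0.315, exact permutation p = 0.2). Fshb and Ghrhr differed by 0.15 and 0.02. Without knockout 3 the differences were -0.16 for Gh, -0.34 for Cga and 0.02 for Tshb, so that 1 array carried the size of these 3 differences. Without knockout 3 and wild type 6 they were 0.42 for Gh, 0.53 for Cga and 0.09 for Tshb, again above 0. Without both arrays Prl differed by 0.19, the brighter Pomc probe set by 0.27, Lhb by 0.31, Fshb by -0.13 and Ghrhr by -0.09, and none of these passed.

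**Figure D4:**
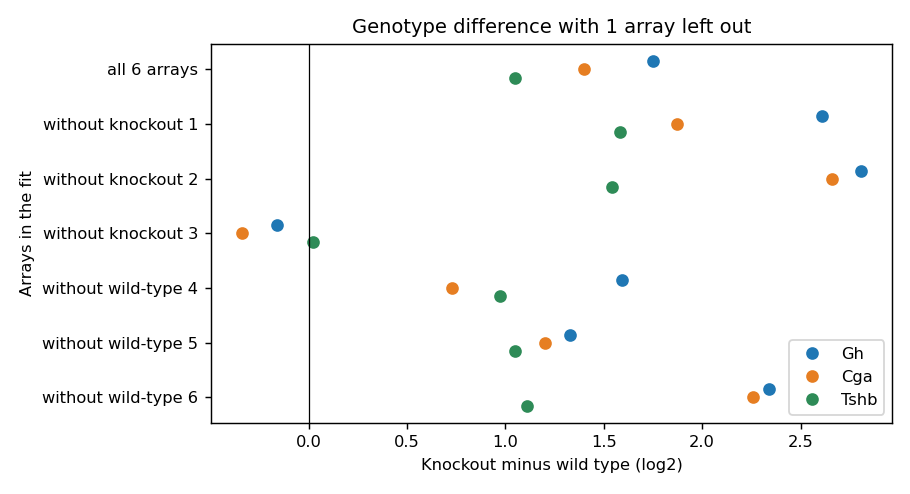
Knockout minus wild type (horizontal axis, log2) for Gh, Cga and Tshb in the fit of all 6 arrays and in fits with 1 array left out (vertical axis). The values without knockout array 3 are -0.16, -0.34 and 0.02, and those of all 6 arrays are 1.75, 1.40 and 1.05.

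The calls of the whole table were compared with and without the 2 arrays of high Gh. Without knockout 3 and wild type 6, 8 probe sets passed, all among the 12. With the level of Gh as a covariate 13 passed, 10 of them among the 12. Gnb5 differed by -5.62 over all arrays, by -5.55 without the 2 arrays and by -5.72 with the covariate, and passed each time.

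Of a further 31 genes of the anterior pituitary, for transcription factors, receptors and secretory proteins, 28 were measured, and none of the 28 showed a step of the size seen for Gh. Many of them are also expressed in brain neurons. In limma 0 of the 28 passed. An unadjusted p under 0.05 was reached by 2 genes with a higher and 2 with a lower knockout mean, or 14.3% of the 28, against 15.6% of all genes. The median difference was 0.08, against 0.05 over 18193 genes. Of the 28, 0 exceeded the other knockouts by more than 1 in knockout 3, against 19 of all 18193 genes. There were 12, or 42.9%, that were highest in knockout 3 among the knockouts, against 26.5% of all genes. Lhx3, a transcription factor of early pituitary development, read 3.65, 3.20 and 4.11 in the knockouts, against 3.31, 3.69 and 3.59 in the wild types. Dlk1, a Notch-family ligand, read 9.33, 8.44 and 8.70 in the knockouts, against 8.32, 8.24 and 8.99 in the wild types. Pax7, a factor of the intermediate lobe, read 3.94, 4.49 and 4.54 in the knockouts, against 4.65, 5.24 and 4.70 in the wild types, and Neurod4, a neurogenic factor, differed by -0.24 (limma adjusted p = 0.542).

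Markers of neighbouring tissues were set beside the arrays of high Gh. The hypothalamus list had 17 of 20 genes measured, and 2 of the 17 were highest in knockout 3 among the knockouts, or 11.8%, against 26.5% of all genes. Their median excess there was -0.37, against -0.02 over all genes. Summed linear values of that list were 15924, 11384 and 12026 in knockouts 1, 2 and 3, against 11445, 11666 and 12374 in the wild types. Knockout 1 thus had the highest sum for hypothalamic genes and knockout 3 for pituitary hormones. Oxt, for oxytocin, read 8.50, 6.97 and 6.54 in the knockouts, against 6.63, 7.52 and 7.49 in the wild types. Ghrh, for the hormone that releases growth hormone, read 6.75, 5.42 and 5.34 in the knockouts, against 4.94, 5.78 and 6.29 in the wild types. Otp and Gal, a transcription factor and a neuropeptide of hypothalamic neurons, were also highest in knockout 1, at 8.13 and 9.02.

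For the choroid plexus, 8 of 9 genes were measured, and the summed linear values were 13725, 13842 and 12438 in the knockouts, against 12768, 13947 and 14417 in the wild types. For the pineal gland, 8 of 9 genes gave 357, 314 and 334 in the knockouts, against 281, 294 and 285 in the wild types. For the cerebellum, all 10 genes gave 9539, 8926 and 9076 in the knockouts, against 9215, 9553 and 9147 in the wild types. For blood, 3 of 5 genes gave 165, 146 and 156 in the knockouts, against 175, 192 and 253 in the wild types, with wild type 6 highest. The pituitary hormone list itself summed to 312, 248 and 2802 in the knockouts, against 232, 240 and 387 in the wild types. The list of other anterior pituitary genes summed to 23304, 22336 and 23646 in the knockouts, against 22577, 23736 and 24367 in the wild types. Its highest sum was thus that of wild type 6, although the median excess of its genes there was only 0.04. A linear sum is set mostly by the brightest genes of a list. Such genes were Cpe in this list, at 13.03 to 13.43 (log2), Ttr for the choroid plexus, at 13.53 to 13.73, and Calb1 for the cerebellum, at 12.11 to 12.30. None of the hypothalamus, choroid plexus, pineal, cerebellum and blood lists had its highest sum in knockout 3.

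Among 510 genes with a range of at least 1 over the 6 arrays, Tshb, Cga and Prl took places 2, 4 and 6 by Pearson r with Gh, which itself took the first. Tshb and Prl reached that range only through knockout 3, the array where Gh was highest, so their places are no test. On the other arrays Tshb ran from 5.10 to 5.39 and Prl from 3.13 to 3.66. Pomc, Lhb, Fshb and Ghrhr had a smaller range and were not ranked. The 10 most similar genes outside the pituitary list ran from r = 0.97 for Lonrf2, a RING-finger protein gene, to 0.82 for Gxylt2, a xylosyltransferase gene. They included Tex14 (0.93), a gene of germ-cell bridges, Arc (0.91), an immediate early gene of neurons, 9330159M07Rik (0.87), Lrrc49 (0.86) and Abcc10 (0.86), a transporter gene. Lonrf2 read 10.24, 10.35 and 11.23 in the knockouts, against 10.17, 10.23 and 10.32 in the wild types. It was high in knockout 3 alone, as Tshb was, but by 0.94.

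Among these 10, 5 had about the same excess in knockout 3 and in wild type 6. Lrrc49 exceeded its group by 0.68 in knockout 3 and 0.82 in wild type 6, and Abcc10 by 0.53 and 0.61. Wdfy1, a gene for a protein of endosomes, exceeded its group by 1.28 in knockout 3 and 1.17 in wild type 6. Paqr7, a membrane progestin receptor gene, did so by 1.43 and 1.47, and Masp2, a complement protease gene, by 1.78 and 1.86. Gh and Cga instead read 4.41 and 3.14 higher in knockout 3 than in wild type 6. The correlations describe 6 arrays that share a normalization, and no p is given for genes picked by r.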

How the data were processed

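Total RNA, extracted with Trizol per the labels' protocols, was labelled with biotin and hybridised to Affymetrix arrays. The deposited table holds log2 expression values, made by the authors with RMA and Partek per the submitters' processing notes, with no version given. RMA corrects background, normalizes arrays jointly and compresses changes that end near background. Besides 64 control probe sets, which were dropped, all 45037 entered the fit with no further normalization or filter.

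The genotype comparison used limma 3.58.1 (lmFit, eBayes; R 4.3.3), two-sided, with Benjamini-Hochberg adjustment across the 45037 and 0.05 as threshold. Precision is limited by the number of arrays, with standard errors of log2 differences at a median of 0.123. Correlations used exact permutations of the 6 arrays. Replicates are described as biological, and p-values measure the spread between these samples. An excess is 1 array minus the mean of the other 2 of its genotype. Folds are 2 to the power of log2 differences. Linear sums use the brightest probe set per gene, the one with the highest mean. The most similar genes are the 10 with the highest r with Gh and a range of at least 1. Of a list, at most 4 genes with the largest SD over the arrays are named. Symbols came from the platform annotation, where 34945 probe sets had 1 gene, 932 several and 9160 none listed. The members and lists were chosen with earlier results of these data known. Figures were drawn with matplotlib 3.10.9.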

Additional observations from a re-analysis of the deposited data

How the results depend on the processing

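No paired analysis was run, because the sample titles number the samples from 1 to 6 across both genotypes and name no litter. In limma 0 pituitary probe sets passed under any alternative that kept the adjusted threshold, and 1 did at an unadjusted p under 0.05 (0 to 4 with 1 array left out). The share of all probe sets at that unadjusted threshold was counted only with all 6 arrays, at 14.4%. The Gh difference ran from -0.16 to 2.81 with 1 array left out. Without knockout replicate 3 the sign turned for Gh at -0.16, for its other probe sets at -0.44, -0.11 and -0.0043 (highest 2.63, 3.31 and 3.49 with another array left out), for Cga at -0.34 (highest 2.66), for Fshb at -0.07 (highest 0.37) and for Ghrhr at -0.01. Ghrhr also turned at -0.05 without wild-type replicate 6 (highest 0.10) and at -0.0029 after quantile normalization, and without both arrays Fshb was -0.13 and Ghrhr -0.09. The correlation of Prl with Gh ran from 0.39 to 0.96 with 1 array left out and lost its unadjusted exact permutation call each time, and rho was 0.71. With 5 arrays fewer orders exist, so the exact p is coarser. Against 12 called probe sets in all, trend and robust eBayes gave 23 and array weights 27. Testing only the brightest probe set of each gene gave 4. Of the 12 called, only 4 were the brightest probe set of a gene and so entered that test. With 1 array left out 9 to 12 passed. The filter on dim signal kept 2 pituitary probe sets, of Gh and Pomc. That of Gh passed with a mean of 5.91, which knockout 3 raised with its value of 10.62. The cause of the other changes was not tested. No detection calls were used, so dim genes could not be parted from background.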

Other observations

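Knockout array 3 and wild-type array 6 also shared high values at probe sets of genes that are not pituitary hormones, chosen here after their values were seen. Casp9, the gene of an initiator caspase, exceeded the other arrays of its genotype by 3.21 in knockout 3 and 3.28 in wild type 6 at 1 probe set. Sorl1, the gene of a neuronal sorting receptor, did so by 2.18 and 2.78, and Kif5b, a kinesin heavy chain gene, by 3.23 and 2.40. Each value is that of 1 probe set. For Minar2, the probe set with the suffix _x_at gave 4.91 and 4.54, and its other 2 probe sets gave 0.64 and 0.56, and -0.19 and -0.02.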
